A study of Mus musculus with 6 samples.

Results

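The genes described here are 10 genes of antigen presentation, out of the 24421 gene symbols counted in 3T3-L1 adipocytes that overexpressed Lmo3. They are the invariant chain Cd74, the class II transactivator Ciita, the class II chains H2-Aa, H2-Ab1 and H2-Eb1, the class II peptide exchange chain H2-DMa, the invariant chain protease Ctss, the class I heavy chains H2-K1 and H2-D1, and the class I light chain B2m. They were chosen by name, and selected on measured values, because Cd74 was already known to be lower with AdLmo3 than with AdLacZ in these same libraries. The contrast of the groups is therefore given for these genes as a description: their calls in the fit over all genes are counted beside the background share, and no p-value is given for them or read.

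3T3-L1 is a mouse fibroblast line that differentiates into adipocytes in culture. All cells were differentiated from day 2 after confluence with insulin (870 nM), a TZD (5 µM), Dex (1 µM) and IBMX (500 µM), and from day 3 without IBMX and Dex. On day 7 they were infected with 100 pfu/cell of an adenovirus carrying LacZ (AdLacZ, the control, n = 3) or Lmo3 (AdLmo3, n = 3), and RNA was taken 72 h later, so that both groups carried virus and no uninfected cells were analysed here. The 3 libraries of a group came from separate infections of the same line, and p-values therefore measure the spread between infections. The virus carried a codon-optimized Lmo3, and the gene's own symbol had 0 counts in all 6 libraries, so the group labels could not be checked by it. The labels give the strain as C57BL/6, whereas 3T3-L1 is known to come from Swiss mouse embryo cells, and the H2 genes of the mouse major histocompatibility complex (MHC) differ between strains; the part of this in the mapped counts was not tested.

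Class II molecules present peptides from the endosome to CD4 T cells. They are made mainly by dendritic cells, macrophages and B cells, where the transactivator CIITA switches on the class II chains, H2-DM and the invariant chain together. The invariant chain CD74 occupies the class II groove until proteases such as cathepsin S trim it and H2-DM exchanges the remainder for antigen peptide. CD74 is also a surface receptor for the cytokine MIF. Class I molecules, a heavy chain bound to B2M, are made by nearly all nucleated cells and present peptides from the cytosol to CD8 T cells, and interferon gamma raises both systems.

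The adipocyte label was checked against 10 adipocyte markers, including Adipoq and Fabp4. All 10 were detected, with summed levels of 20287 to 22442 CPM (counts scaled to a library of common size) in AdLacZ and 27722 to 33575 CPM in AdLmo3. Of the 10, 9 passed the test as higher in AdLmo3, as did 2.71% of all tested genes. The markers were chosen with earlier results of these data known. Gene counts summed to between 28035639 and 38332335 per library, and a gene with 3 counts, taken as the floor of detection, lay at 0.0768 to 0.111 CPM, a limit that covers counting error only. Replicates differed by more than sampling noise, with a chi-square of 24.1 to 64.1 per degree of freedom.

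The class I heavy chains resemble each other closely, which bears on how reads could be divided between them. On GRCm38, H2-K1 lies at chr17:33996017-34000347 on the minus strand and H2-D1 at chr17:35262730-35267499 on the plus strand. Their coding sequences of 1107 and 1086 bp were identical at 988 of 1074 aligned positions (92%). The longest identical run was 91 bases, longer than the reads of 75 bp, and is shown to make clear where a read cannot be placed. Capitals mark the run in bases 723 to 843 of the H2-K1 coding sequence and bases 732 to 852 of that of H2-D1, both from GENCODE vM21.
H2-K1: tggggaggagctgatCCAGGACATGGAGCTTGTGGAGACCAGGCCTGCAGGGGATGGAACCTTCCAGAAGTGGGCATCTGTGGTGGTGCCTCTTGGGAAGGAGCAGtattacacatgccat
H2-D1: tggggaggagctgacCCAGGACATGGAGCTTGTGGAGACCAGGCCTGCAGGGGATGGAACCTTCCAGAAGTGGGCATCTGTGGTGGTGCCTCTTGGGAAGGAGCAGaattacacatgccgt
By exact matches to the reference, a small part of the annotated sequence of either gene was ambiguous in this way. All annotated transcripts of a gene were pooled, and stretches that differ by a base were not counted. The shares can therefore understate how many reads could be misplaced. Of all stretches of 75 bases in the annotated transcripts, 3.1% of those of H2-K1 and 5.56% of those of H2-D1 also occurred in another gene, mostly another class I gene. Cd74, B2m, H2-Aa, H2-Ab1, H2-Eb1 and Ctss had no shared stretch. Ciita shared 0.765% with Dexi, and H2-DMa shared 7.46% with its neighbour Brd2.

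Class I and class II promoters are known to share an upstream module read by RFX, CREB family and NF-Y factors, and class I promoters add sites for NF-κB and interferon regulatory factors. Promoters of an abundant heavy chain, of the abundant light chain and of a class II chain without counts are shown so that these letters can be set beside the levels that follow. The RefSeq table for GRCm38.p6 held 7 of the 10 genes. Each sequence is the 250 bases before the start, 5′ to 3′ on the strand of the gene, and capitals mark matches, on either strand, to CCAAT (bound by NF-Y), TGACG (bound by CREB family factors), GAAA followed after any 2 bases by GAAA (an interferon response element) and GGGGA followed after any base by TCCCC (an NF-κB site). H2-K1 is chr17:34000348-34000597 (minus strand), B2m is chr2:122147437-122147686 (plus strand) and H2-Aa is chr17:34287824-34288073 (minus strand).
H2-K1: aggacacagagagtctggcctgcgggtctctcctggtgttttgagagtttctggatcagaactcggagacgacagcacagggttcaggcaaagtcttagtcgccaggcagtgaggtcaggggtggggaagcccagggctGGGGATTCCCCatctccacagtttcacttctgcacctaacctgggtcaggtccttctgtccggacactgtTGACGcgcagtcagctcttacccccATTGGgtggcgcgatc
B2m: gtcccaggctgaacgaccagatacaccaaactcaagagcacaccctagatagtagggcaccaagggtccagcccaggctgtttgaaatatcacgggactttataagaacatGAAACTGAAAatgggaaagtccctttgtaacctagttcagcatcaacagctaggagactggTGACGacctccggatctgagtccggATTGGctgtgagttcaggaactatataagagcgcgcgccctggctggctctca
H2-Aa: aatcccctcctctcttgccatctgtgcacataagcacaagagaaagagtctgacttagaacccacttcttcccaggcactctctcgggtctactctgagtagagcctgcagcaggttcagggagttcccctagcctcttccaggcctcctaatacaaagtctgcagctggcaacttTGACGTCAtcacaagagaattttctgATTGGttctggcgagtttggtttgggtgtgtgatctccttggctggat
In H2-K1, CCAAT lay 16, TGACG 41 and the NF-κB letters 111 bases before the start. B2m held CCAAT at 53, TGACG at 78 and the interferon response element at 139 bases. H2-Aa held CCAAT at 48 bases and a pair of overlapping TGACG matches, 1 on each strand, at 74 and 71 bases. H2-D1, whose 250 bases before the RefSeq start lie in a first exon of another GENCODE transcript and are not printed, held CCAAT at 76 and 53, TGACG at 101 and the NF-κB letters at 171 bases. From a second listed start of H2-K1 the distances were 30 and 6 bases for CCAAT, 55 for TGACG and 125 for the NF-κB letters. H2-Eb1 held CCAAT at 59 and 35 bases, and Ctss the interferon response element at 21 bases. H2-DMa held none of these letters at its first listed start and CCAAT alone, at 198 bases, at its second. These stretches end at chr17:34122831 and chr17:34125517, inside the annotated span of the gene (chr17:34119541-34139101). Sequence before any other start of H2-DMa was not examined. Among 32851 promoters of that length, 33.8% held CCAAT, 17.8% TGACG, 2.98% the interferon response element and 0.0457% (15 promoters) the NF-κB letters. The short letters are thus common, and all matches describe the sequence only. The patterns are strict, so that sites which differ from them stay in lower case. A missing mark therefore does not show that a promoter lacks a site.

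Cd74 was the gene of the 10 with the largest difference between the groups. Its transcript had 418, 350 and 297 counts in AdLacZ replicates 1, 2 and 3, and 138, 183 and 103 counts in AdLmo3 replicates 1, 2 and 3. After TMM normalization these were 11.7, 8.96 and 8.76 CPM in AdLacZ and 3.73, 4.97 and 3.81 CPM in AdLmo3. All 3 AdLmo3 libraries lay below all 3 AdLacZ libraries. The mean level was 9.82 ± 1.67 CPM with AdLacZ and 4.17 ± 0.695 CPM with AdLmo3 (SD, n = 3 each). The log2 fold change was -1.23 (SE 0.172), or 0.426 times the control. In a bulk library, fewer cells with a transcript and less transcript per cell cannot be told apart. Cd74 lies at chr18:60803848-60812652 on the plus strand of GRCm38, outside the H2 region.

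The class II chains that CD74 chaperones were at or under the floor of detection in both groups. H2-Aa and H2-Eb1, the alpha chain of H2-A and the beta chain of H2-E, had 0 counts in all 6 libraries. H2-Ab1, the beta chain of H2-A, had 0, 0 and 3 counts in AdLacZ replicates 1, 2 and 3 and 1, 1 and 0 counts in AdLmo3 replicates 1, 2 and 3. Ciita, which encodes the class II transactivator, had 0, 0 and 2 counts in AdLacZ and 2, 3 and 0 counts in AdLmo3. Ctss, which encodes cathepsin S, had 0, 1 and 0 counts in AdLacZ and 2, 1 and 0 counts in AdLmo3. None of these 5 genes had a library above 3 counts, so that no difference between the groups was detectable at this depth and no fold change is given. Cd74 was thus measured in cells in which neither the surface class II chains nor their transactivator rose above 0.111 CPM, the highest floor of the 6 libraries.

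H2-DMa, the alpha chain of the peptide exchange factor H2-DM, was the only class II chain among the 10 genes above the floor. It had 210, 250 and 193 counts in AdLacZ replicates 1, 2 and 3 and 202, 280 and 183 counts in AdLmo3 replicates 1, 2 and 3. The groups overlapped, with means of 6.00 ± 0.363 CPM in AdLacZ and 6.61 ± 1.09 CPM in AdLmo3 and a log2 fold change of 0.14 (SE 0.149). For each 1000 H2-DMa counts there were 1990, 1400 and 1539 Cd74 counts in AdLacZ and 683, 654 and 563 in AdLmo3. This ratio needs no scaling factor, and its groups did not overlap (1643 ± 309 against 633 ± 62.7, SD, n = 3 each). It carries the Cd74 difference on which the genes were selected and is not a separate result. Cd74 therefore did not move together with the H2-DM alpha chain, although H2-DMa shares part of its annotated sequence with Brd2.

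**Figure D1:**
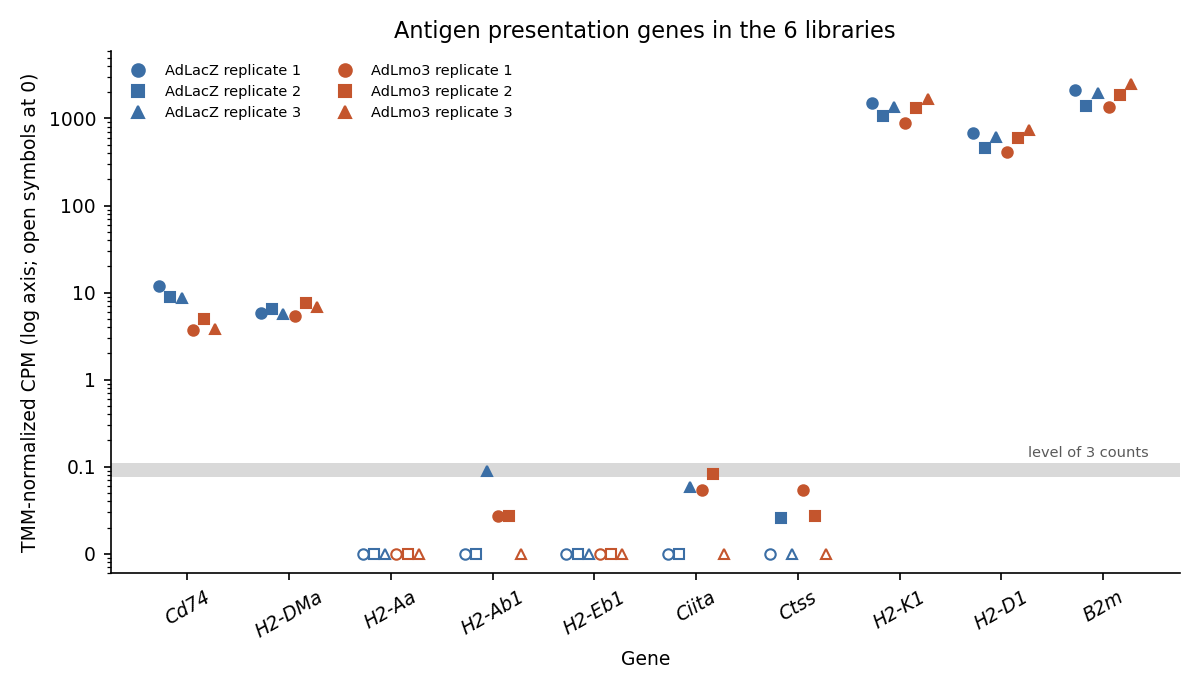
TMM-normalized CPM (log axis) of the 10 genes in the 3 AdLacZ (blue) and 3 AdLmo3 (orange) libraries, with a symbol shape for each replicate number, open symbols for 0 counts, and a grey band at the level of 3 counts (0.0768 to 0.111 CPM). Cd74 and H2-DMa lie between 3.73 and 11.7 CPM, the class I genes between 410.2 and 2473 CPM, and the other 5 genes in or under the band.

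Class I genes, in contrast, were among the most abundant transcripts, and their groups overlapped. H2-K1, a classical heavy chain, stood at 1503, 1058 and 1352 CPM in AdLacZ replicates 1, 2 and 3 and at 893, 1305 and 1669 CPM in AdLmo3 replicates 1, 2 and 3. H2-D1, the other classical heavy chain counted, stood at 678, 463 and 614 CPM in AdLacZ and at 410.2, 590.4 and 737 CPM in AdLmo3. B2m, the light chain of every class I molecule, stood at 2127, 1387 and 1982 CPM in AdLacZ and at 1365, 1837 and 2473 CPM in AdLmo3. For all 3 genes the lowest and the highest of the 6 libraries were both AdLmo3 libraries, replicate 1 and replicate 3. The log2 fold changes were -0.02 (SE 0.219) for H2-K1, -0.01 (SE 0.213) for H2-D1 and 0.05 (SE 0.227) for B2m, each smaller than its standard error. B2m ranked between place 25 and place 50 among all genes by counts, depending on the library, and Cd74 between place 8776 and place 10409.

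Levels of different genes are comparable only per length of transcript. Per kilobase, B2m was the highest, at 2130 ± 456 CPM in AdLacZ and 2199 ± 646 CPM in AdLmo3 (SD, n = 3 each). H2-K1 followed at 806 ± 139.8 and 796 ± 240 CPM per kilobase, and H2-D1 at 278 ± 52.5 and 276 ± 78.0 CPM per kilobase. Over the 6 libraries B2m ranged from 1587 to 2875, H2-K1 from 552 to 1031 and H2-D1 from 195 to 351 CPM per kilobase, so that these levels did not overlap. The order of the rarer pair differed between the groups: Cd74 was at 6.97 ± 1.18 and H2-DMa at 3.62 ± 0.219 CPM per kilobase in AdLacZ, against 2.96 ± 0.493 and 3.99 ± 0.654 CPM per kilobase in AdLmo3, where the ranges of both genes overlapped.

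The class I genes kept nearly the same proportions to each other in all libraries. For each 1000 H2-K1 counts there were 451, 437.9 and 454 H2-D1 counts in AdLacZ replicates 1, 2 and 3 and 459, 453 and 442 in AdLmo3 replicates 1, 2 and 3, a range of 1.05-fold. For each 1000 B2m counts, H2-K1 ranged from 654 to 763 and H2-D1 from 298 to 334 over the 6 libraries. The absolute levels moved far more than these ratios: against the mean of their own group on the log2 scale, H2-K1, H2-D1 and B2m were at -0.48, -0.46 and -0.43 in AdLmo3 replicate 1 and at 0.42, 0.39 and 0.43 in AdLmo3 replicate 3. Cd74 was at -0.15 and -0.11 in the same pair of libraries, and so did not share the spread of the class I genes within AdLmo3. AdLmo3 replicate 3 also had the fewest gene counts of the 6 libraries and the largest share of reads outside genes (8.94%), and the part of these in the spread was not tested.

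**Figure D2:**
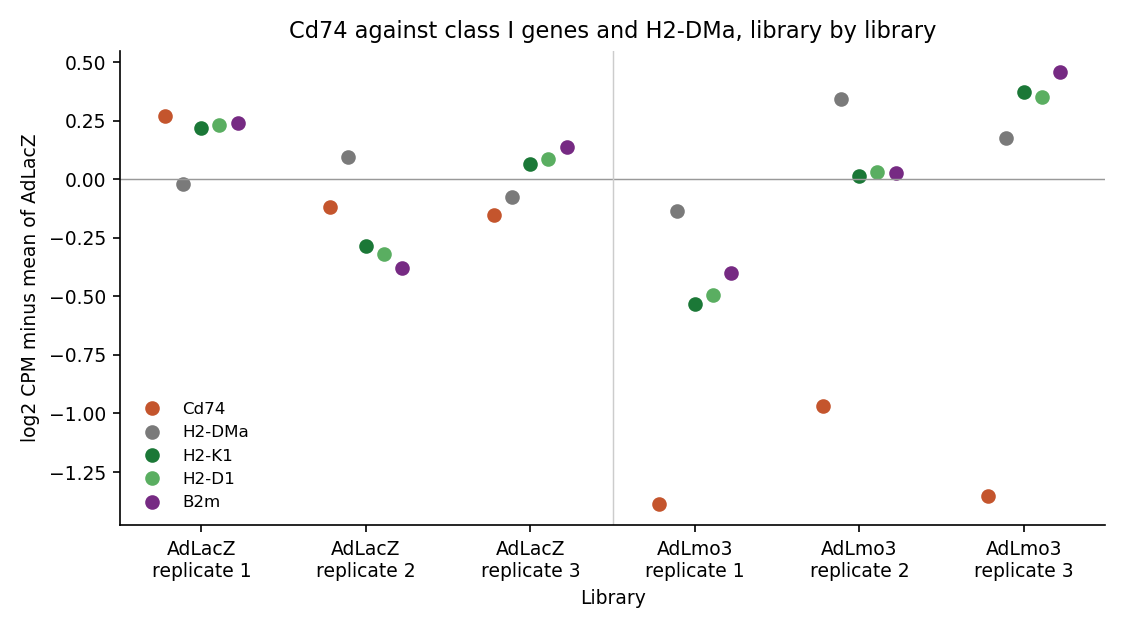
Difference of log2 CPM from the AdLacZ mean of the same gene for the 5 genes above the floor, 1 point for each gene in each of the 6 libraries. Cd74 is the only gene far below 0 in all AdLmo3 libraries, while H2-K1, H2-D1 and B2m lie close together in each library and spread from low in AdLmo3 replicate 1 to high in AdLmo3 replicate 3.

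Cd74 relative to class I separated the groups as its level did. For each 1000 B2m counts there were 5.52, 6.46 and 4.42 Cd74 counts in AdLacZ replicates 1, 2 and 3 and 2.73, 2.71 and 1.54 in AdLmo3 replicates 1, 2 and 3. The groups did not overlap, with means of 5.47 ± 1.02 and 2.33 ± 0.679 (SD, n = 3 each) and a difference of -1.26 on the log2 scale. Like the ratio to H2-DMa, this restates the Cd74 difference on which the genes were selected. For each 1000 H2-K1 counts there were 7.82, 8.47 and 6.48 Cd74 counts in AdLacZ and 4.17, 3.81 and 2.28 in AdLmo3. The lower Cd74 level was thus not shared by the class I genes of the same libraries, with either gene as the reference.

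**Figure D3:**
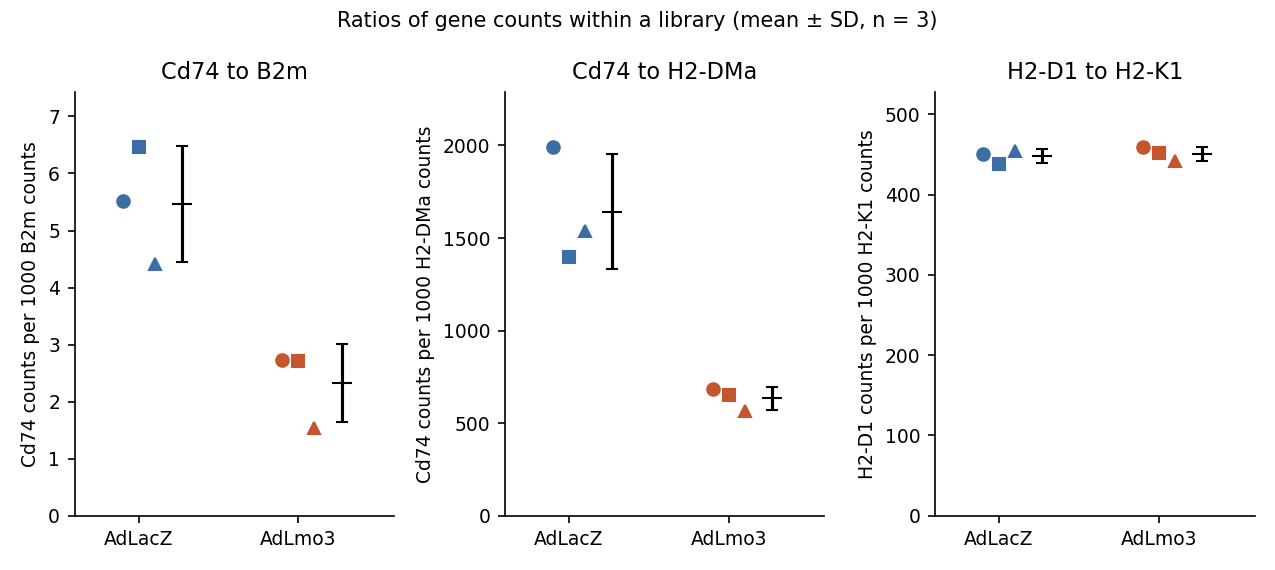
Counts of Cd74 per 1000 counts of B2m (left) and of H2-DMa (middle), and of H2-D1 per 1000 counts of H2-K1 (right), in the 3 AdLacZ (blue) and 3 AdLmo3 (orange) libraries, where circles, squares and triangles are replicates 1, 2 and 3 and bars are the mean ± SD. The Cd74 ratios of the groups are apart (at least 4.42 against at most 2.73 for B2m), and H2-D1 to H2-K1 stays between 437.9 and 459.

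Of the 10 genes, 5 (Cd74, H2-DMa, H2-K1, H2-D1 and B2m) had enough counts for the edgeR fit over 12766 genes. Of these 5, 1 gene, Cd74, was called at an adjusted p under 0.05, in the lower direction, while 4.28% of all tested genes were called in either direction, 1.57% as lower and 2.71% as higher in AdLmo3. Cd74 was also the only 1 of the 5 whose groups did not overlap, as was the case for 26.5% of all tested genes. Since the genes were selected with this contrast known, nothing is read from these counts. The median log2 fold change was -0.01 over the 5 genes and 0.00 over all tested genes (0.00138).

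The genes whose profile over the 6 libraries was most like that of Cd74, by the root mean square distance of log2 CPM centred on the AdLacZ mean, were Fam26e (0.181), Akr1b7 (0.218), Hist2h2bb (0.222), Trim66 (0.234) and Fam57b (0.243). None of them belongs to the antigen presentation lists. Fam26e, the nearest, stood at 3.32, 2.35 and 2.04 CPM in AdLacZ and 1.03, 1.49 and 1.22 CPM in AdLmo3, with the same low AdLmo3 libraries as Cd74. Fam57b, the most abundant of the 5, stood at 27.0, 28.1 and 22.6 CPM in AdLacZ and 11.4, 13.4 and 13.9 CPM in AdLmo3. The likeness rests on 6 libraries. The groups did not overlap for any of the 5 genes, as was the case for 26.5% of all tested genes. Because the 5 genes were picked for their likeness to Cd74, this was largely fixed by the choice, and nothing is read from it. Fam26e (log2 fold change -1.04, SE 0.255) was not called.

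To place the 10 genes in their pathway, 98 other genes of antigen presentation were followed, of which 73 were tested. Of these, 2 were called as higher and 4 as lower in AdLmo3 (8.22%, against 4.28% of all tested genes), and their median log2 fold change was 0.08. All p-values given for these genes are adjusted over all 12766 genes in edgeR's quasi-likelihood test.

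Among other class II genes, only the beta chains of H2-DM were abundant enough to be tested. H2-DMb1 stood at 6.52, 6.27 and 5.19 CPM in AdLacZ replicates 1, 2 and 3 and at 8.77, 10.3 and 10.4 CPM in AdLmo3 replicates 1, 2 and 3, without overlap. It rose by 0.71 on the log2 scale (SE 0.132, adjusted p = 0.0256). H2-DMb2 had a log2 fold change of 0.47 (SE 0.159, adjusted p = 0.147) and did not pass. The beta chains share 15.8% and 16.2% of their stretches of 75 bases, mostly with each other, so that reads could be divided between them in error. The call of H2-DMb1 was lost without AdLacZ replicate 2 or 3 or AdLmo3 replicate 2 or 3 (adjusted p = 0.0632, 0.107, 0.109 and 0.0697). Cd74 and H2-DMb1, which work in the same compartment of antigen presenting cells, thus differed in opposite directions.

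None of the 12 endosomal processing genes tested was called by edgeR in the main fit, while 4 had an unadjusted p under 0.05 and DESeq2 called 3 (Ctsb, Ctsl and Ctsz). With no filter beyond 1 count, edgeR called Ctsb. The aspartic protease Ctsd was at 1093 ± 77.0 CPM in AdLacZ and 1091 ± 60.9 CPM in AdLmo3 (log2 fold change 0.00, SE 0.0831), and the cysteine protease Ctsb had a log2 fold change of 0.39 (SE 0.095). Cst3, the inhibitor cystatin C, had a log2 fold change of 0.05 (SE 0.0737), and Ctsh, near the limit of detection, of 0.50 (SE 0.455). Ctsl stood at 534 ± 22.5 CPM in AdLacZ and 441 ± 40.3 CPM in AdLmo3, without overlap (log2 fold change -0.28, SE 0.085). Ctsz and Ctsf differed in the direction of Ctsb, opposite to Ctsl, with log2 fold changes of 0.28 (SE 0.071) and 0.32 (SE 0.0948). Transcripts of the lysosomal proteases Ctsd, Ctsb and Ctsl were thus abundant, while Ctss had no library above 3 counts. Whether the invariant chain was trimmed in these cells was not tested.

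The 4 tested surface partners and ligands of CD74 were not called by edgeR or DESeq2, and 0 of them had an unadjusted p under 0.05. Mif, the ligand of CD74, stood at 82.2, 195.9 and 143.8 CPM in AdLacZ and at 134, 168 and 115 CPM in AdLmo3, with overlapping groups and a log2 fold change of -0.02 (SE 0.279). The related cytokine Ddt had a log2 fold change of -0.03 (SE 0.0739), and the signalling partner Cd44 of 0.16 (SE 0.0872). The coreceptors Cxcr2 and Cxcr4 had no library above 3 counts.

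Of 14 tested class I and class I-like chains, 1 rose, 1 fell and 12 did not pass. Cd1d1, which presents lipids, stood at 47.0, 34.9 and 42.5 CPM in AdLacZ and at 58.2, 59.4 and 76.3 CPM in AdLmo3, and rose by 0.64 on the log2 scale (SE 0.136, adjusted p = 0.0407). Hfe, a class I-like regulator of iron balance, stood at 15.1, 14.8 and 18.6 CPM in AdLacZ and at 9.26, 11.4 and 8.74 CPM in AdLmo3, and fell by 0.71 on the log2 scale (SE 0.138, adjusted p = 0.0288). Neither gene's groups overlapped. The call of Cd1d1 was lost without AdLacZ replicate 2 or 3 or AdLmo3 replicate 2 or 3 (adjusted p = 0.0888, 0.145, 0.0970 and 0.0741). That of Hfe was lost without any AdLacZ replicate or without AdLmo3 replicate 1 or 3 (adjusted p from 0.0572 to 0.120).

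H2-Q4, an abundant non-classical chain, stood at 242, 175 and 211 CPM in AdLacZ and at 137, 212 and 272 CPM in AdLmo3, again lowest in AdLmo3 replicate 1 and highest in AdLmo3 replicate 3, with a log2 fold change of -0.02 (SE 0.226). H2-T10 had a log2 fold change of 0.00 (-0.0038, SE 0.197) and H2-T24 of 1.06 (SE 0.464), the largest of this list, without passing. Without AdLmo3 replicate 1, the library lowest in H2-K1, H2-D1 and B2m, H2-T24 and H2-T23 were both called by edgeR. H2-Q4 and H2-T10 share 20.7% and 36% of their stretches of 75 bases with other genes and are uncertain. Fcgrt, the neonatal Fc receptor chain, which also binds B2M, had a log2 fold change of 0.12 (SE 0.0692).

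In the endoplasmic reticulum, 3 genes whose proteins fold class I heavy chains fell. Calr (calreticulin) stood at 2666, 2683 and 2937 CPM in AdLacZ and at 1380, 1083 and 1173 CPM in AdLmo3, and fell by 1.19 on the log2 scale (SE 0.106, adjusted p = 0.00352). Pdia3 (ERp57) stood at 1003, 937 and 1035 CPM in AdLacZ and at 684, 573 and 599 CPM in AdLmo3, and fell by 0.68 (SE 0.0884, adjusted p = 0.0078). Canx (calnexin) stood at 1312, 1309 and 1479 CPM in AdLacZ and at 1088, 999 and 1030 CPM in AdLmo3, and fell by 0.40 (SE 0.0811, adjusted p = 0.0366). All 3 are general chaperones of glycoproteins, not of class I alone, and their groups did not overlap. The call of Pdia3 was lost without AdLacZ replicate 3 (adjusted p = 0.0558), and that of Canx without any 1 library (adjusted p from 0.0573 to 0.153). The other 11 genes for peptide supply and loading, including the peptide transporter chains Tap1 and Tap2 and the immunoproteasome subunits Psmb8 and Psmb9, did not pass.

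**Figure D4:**
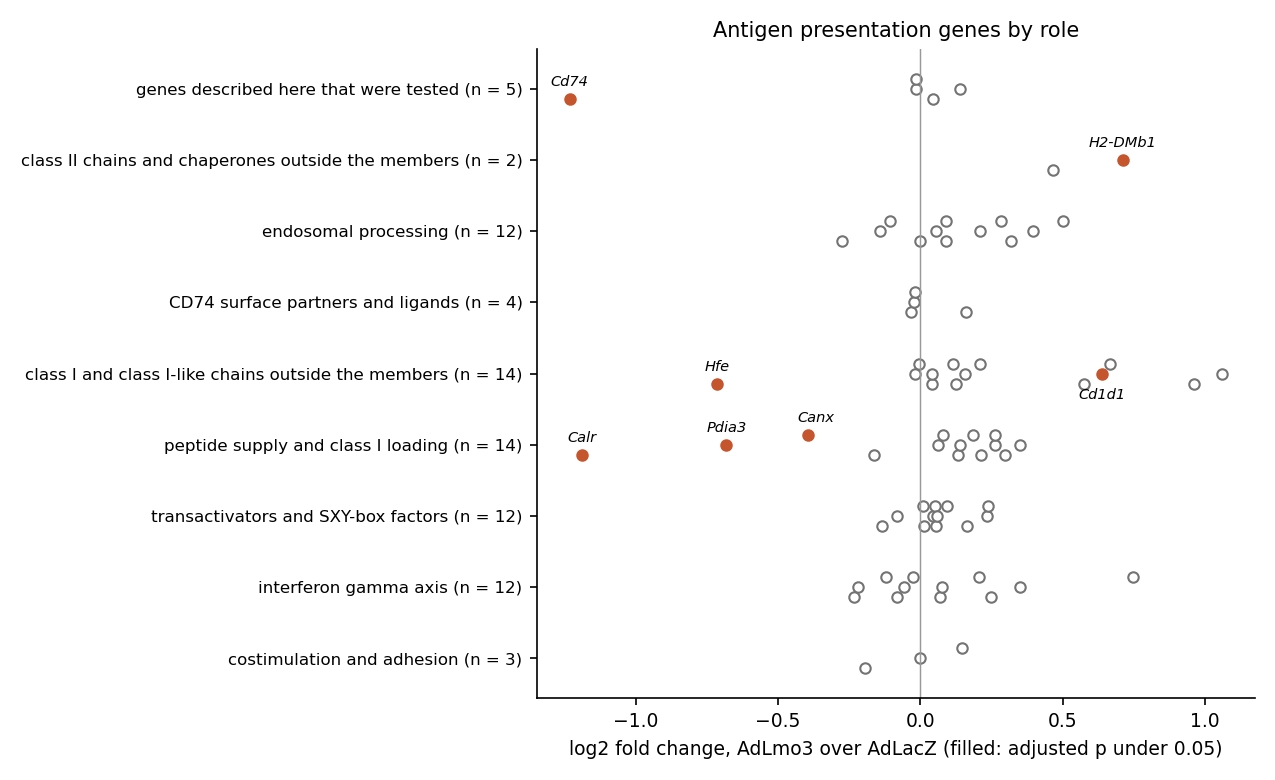
log2 fold change of AdLmo3 over AdLacZ for every tested antigen presentation gene, grouped by role, with filled symbols and names for genes at an adjusted p under 0.05. Most genes lie near 0, Cd74 and Calr are the lowest at -1.23 and -1.19, and H2-DMb1 and Cd1d1 are the called genes to the right of 0.

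None of the 12 transactivators and promoter factors was called by edgeR or DESeq2, and 1 had an unadjusted p under 0.05. Rfxank, a subunit of the RFX complex, stood at 22.5, 26.8 and 22.9 CPM in AdLacZ and at 26.1, 29.5 and 29.5 CPM in AdLmo3 (log2 fold change 0.24, SE 0.0934), the largest difference of this list. The coactivators Kat2b, Ep300 and Carm1 had log2 fold changes of 0.06 (SE 0.115), 0.05 (SE 0.0975) and 0.17 (SE 0.0751). Transcripts of factors of the shared promoter module were thus detected in both groups, unlike those of Ciita. Nlrc5, the transactivator of class I, chosen here after its values were seen, stood at 36.4, 36.6 and 38.2 CPM in AdLacZ and at 28.2, 32.7 and 70.5 CPM in AdLmo3, the same lowest and highest libraries as H2-K1.

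No gene of the interferon gamma axis was called by edgeR or DESeq2 among 12 tested, 2 had an unadjusted p under 0.05, and Ifng itself had 0 counts in all libraries. The chemokine Cxcl10 stood at 26.2, 41.3 and 34.3 CPM in AdLacZ and at 11.4, 17.4 and 59.5 CPM in AdLmo3, and was called by edgeR when AdLmo3 replicate 3 was left out. The kinase Jak1, which transmits the signal of the receptor, had a log2 fold change of -0.23 (SE 0.0755), and the induced GTPases Gbp2 and Gbp3 of 0.35 (SE 0.307) and 0.75 (SE 0.456). Of these 12 genes, 7 were lowest in AdLmo3 replicate 1 and highest in AdLmo3 replicate 3, as were H2-K1, H2-D1 and B2m, 6 of the 14 other class I chains and 5 of the 14 peptide supply genes, against 4.18% of all tested genes. In the other lists it held for 0 of 12 endosomal processing genes, 0 of 4 partners of CD74, 0 of 2 class II chains, 1 of 12 transactivators and promoter factors and 1 of 3 costimulation genes. This pattern was described after the values were seen. Of the costimulation genes, Cd86 and Cd40 had no library above 3 counts, and the 3 that were tested (Vcam1, Cd274 and Icosl) had log2 fold changes of 0.00 (-0.000829), 0.15 and -0.19 and were not called by edgeR or DESeq2, with 0 at an unadjusted p under 0.05.

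Many markers of cells that make class II had no library above 3 counts. Above the floor were, among others, Cd14 (8.13 to 12.5 CPM), Zbtb46 (11.4 to 14.2 CPM) and Cd68 (1.48 to 4.17 CPM). Per kilobase, the AdLacZ means were 6.94 CPM for Cd14, 2.28 for Zbtb46 and 2.69 for Cd68, against 6.97 for Cd74. In AdLmo3, Cd14 was at 6.15 and Zbtb46 at 2.54 CPM per kilobase, against 2.96 for Cd74, and Cd68 was lower than Zbtb46. Of 11 macrophage markers counted, 7 had no library above 3 counts, among them Ptprc, Adgre1 and Itgam, with C1qa and Tyrobp at 0, and the summed level was 14.5 to 16.2 CPM in AdLacZ and 11.7 to 14.7 CPM in AdLmo3, most of it Cd14. Of 7 B cell markers, 5 had no library above 3 counts, Ms4a1 and Pax5 were at 0, and the sum was 0.0256 to 0.147 CPM in AdLacZ and 0.0543 to 0.148 CPM in AdLmo3. Of 8 dendritic cell markers, 5 had no library above 3 counts, and the sum of 12.1 to 13.7 CPM in AdLacZ and 13.2 to 14.4 CPM in AdLmo3 was nearly all Zbtb46. Summed levels of 7 fibroblast markers (5478 to 7629 CPM in AdLacZ, 5752 to 8559 CPM in AdLmo3) and of 7 endothelial markers (1.88 to 2.79 CPM and 1.37 to 2.16 CPM) overlapped between the groups. No marker of these 5 cell types that was tested was called by edgeR or DESeq2, and 1, an endothelial marker, had an unadjusted p under 0.05. A pair of markers, named after their values were seen, had lower means in AdLmo3 without being called: the macrophage marker Cd68 stood at 2.00, 4.17 and 3.78 CPM in AdLacZ and at 2.67, 1.77 and 1.48 CPM in AdLmo3 (log2 fold change -0.74, SE 0.323, adjusted p = 0.246 by edgeR), and the dendritic cell marker Itgax, too low to be tested, had 14, 9 and 19 counts in AdLacZ and 3, 10 and 3 counts in AdLmo3. Other markers of the same lists went the other way. Of the 3 tested macrophage markers, 2 were lower and 1, Csf1r, was higher in AdLmo3 (log2 fold change 0.49, SE 0.318). Mrc1, too low to be tested, had 0, 2 and 0 counts in AdLacZ and 4, 3 and 3 counts in AdLmo3. The 1 tested dendritic cell marker, Zbtb46, had a log2 fold change of 0.15 (SE 0.0979). The part of any of these markers, or of the higher adipocyte markers in AdLmo3, in the Cd74 level was not tested.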

How the data were processed

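Total RNA of 6 cultures was sequenced in reads of 75 bp. According to the submitters' processing notes the reads were mapped with STAR 2.5.0b to mm10 and analysed with DESeq2 1.6.3. The authors deposited raw counts of reads per gene symbol for each library. The counting program, annotation and strand setting are not given in the sources used here. Reads in no gene (7.15% to 8.94% of a library) and in several genes (0.476% to 0.543%) were left out. Genes kept by filterByExpr were scaled by TMM and compared between the groups with the quasi-likelihood test of edgeR 4.0.16 in R 4.3.3, with group as the only term. P-values were adjusted by the Benjamini-Hochberg method over all genes kept, and genes under 0.05 were called. The test was checked on simulated counts, drawn independently with the same dispersion for every gene. That check does not cover shifts that many genes of a library share. The SE was taken as the log2 fold change over the root of the F statistic. CPM per kilobase used the length of the principal GENCODE vM21 transcript (GRCm38). Promoters came from RefSeq (GRCm38.p6).

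The genes described, the pathway lists and the markers were chosen with earlier results of these data known. Of each pathway list, genes were named that were called, that were among the 3 highest by mean CPM, or that had the largest absolute log2 fold change; for markers, the summed level and the genes with no library above 3 counts; and the 5 genes nearest to Cd74 over the 6 libraries. Some items that this rule names are not reported here. Alternatives were DESeq2 1.42.0, 3 other scalings, 2 other filters on low counts, a block for the replicate number and leaving out each library. Figures were drawn with matplotlib 3.10.9.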

Additional observations from a re-analysis of the deposited data

How the results depend on the processing

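The log2 fold change of Cd74 stayed between -1.38 and -1.08 over 13 alternatives, and that of Cd74 relative to B2m between -1.45 and -0.98 over 10. The values of H2-K1 (-0.25 to 0.19), H2-D1 (-0.23 to 0.19) and B2m (-0.19 to 0.24) changed sign with the library left out. The number of genes called, 547, was 1104 with DESeq2 and 77 to 501 when a library was left out: 284, 238 and 77 without AdLacZ replicate 1, 2 and 3, and 501, 152 and 289 without AdLmo3 replicate 1, 2 and 3. The number of pathway genes called, 6, was 1 to 6 in these fits, which hold fewer samples (4, 2 and 1 without AdLacZ replicate 1, 2 and 3, and 6, 3 and 3 without AdLmo3 replicate 1, 2 and 3), and 9 with DESeq2. It was 7 in edgeR with no filter beyond 1 count, where Ctsb entered. Only 4 of the 6 without AdLmo3 replicate 1 were shared with the full set (H2-T23 and H2-T24 entered), and 2 of the 3 without AdLmo3 replicate 3 (Cxcl10 entered). Calr was called in all 13 alternatives. With scaling by total counts only, 767 genes were called, of which 34.7% were higher in AdLmo3, against 63.3% with TMM, and the median log2 fold change of all genes was -0.07; the same 6 pathway genes were called.

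Same-numbered libraries of the groups had positive correlations of their deviations across genes (0.0345, 0.176 and 0.176), against a mean of -0.0643 for other pairs. Each gene was centred on its group mean, which ties the mean of the other pairs to the same-numbered values. The comparison therefore cannot decide whether the replicate numbers pair the samples. The labels give no pairing, and the main fit used none. With the replicate block 498 genes were called, 400 of them shared with the 547, and 4 of the 6 pathway genes (not Canx, adjusted p = 0.0536, and Hfe, adjusted p = 0.0532, by edgeR).

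The depth limits the statements on Ciita, H2-Aa, H2-Ab1, H2-Eb1 and Ctss to levels above 3 counts. With 3 libraries a group, an exact two-sided permutation test of 1 gene cannot give a p below 0.1.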
